A study of Bos taurus with 4 samples.

Results

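In rumen epithelial primary cells, 4426 intergenic regions of open chromatin were listed in both libraries named Control and in neither library named BT. They were chosen by their presence in the deposited peak lists. Intervals of the 4 libraries that overlapped by at least 1 bp were merged, and a region was kept when it held intervals of both Control-named and no BT-named library and no interval of it carried a gene. The 4426 regions, called Control-only intergenic regions here, were 13.9% of the 31813 intergenic regions. The intergenic regions were in turn 27.4% of all 115970 merged regions. Among all merged regions, 13.1% had the same pattern of listing. The opposite pattern, listed in both BT-named and in neither Control-named library (BT-only), was found for 2032 intergenic regions, which was 6.39% of the intergenic ones. A further 16162 intergenic regions were listed in all 4 libraries (shared). Since presence in these lists chose the regions, the counts describe them and were not tested.

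ATAC-seq uses a transposase that inserts sequencing adapters where DNA is not covered by nucleosomes, so a peak marks open chromatin. Open chromatin far from genes often holds enhancers, which are stretches of DNA where transcription factors bind and act on promoters at a distance, and it differs more between cell types and states than open chromatin at promoters does. Butyrate, a short-chain fatty acid that rumen microbes release from feed, is an energy source for the rumen epithelium and inhibits histone deacetylases, the enzymes that take acetyl groups off histones.

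A single Holstein bull calf, 2 weeks old and given nothing but milk replacer, was the source of the cells. One pair of libraries came from untreated cells and the other from cells kept in medium with butyrate at 5 mM for 24 h. The labels disagree on which pair that was. The library names in the sample descriptions and in the peak table call one pair BT and the other Control, whereas titles, source names and the treatment field give butyrate to the Control-named pair. The BT-named and the Control-named group (2 libraries each) are called by the names that the values carry, and only the direction of a difference is contested, not the pairs. All cells shared 1 donor. The study describes the paired libraries as biological replicates but does not say that they came from separate cultures, so p-values measure only the spread between these libraries. In such bulk libraries, fewer cells of a type and less signal per cell cannot be told apart.

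The BT-named lists held 83391 and 84808 intervals and the Control-named lists 94941 and 98962. Read totals were not used here. Each interval carried a peak value, the signal at its summit, and an average value, the mean signal along it. The lowest peak value of an intergenic interval was 23 and 22 in the BT-named and 23 and 21 in the Control-named libraries, so each list stopped at about the same height. A region missing from a list need not be without signal, and signal at unlisted regions was not measured here. Of 6 epithelial marker genes, 4 (KRT5, KRT14, KRT18 and EPCAM) had a promoter peak in all 4 libraries, within 1 kb of the gene start. KRT19 had one in the BT-named libraries only, and the promoter of CDH1, the E-cadherin gene, was in no list. Of 6 endothelial and immune markers, 5 were in no list, and SPI1 was in all 4.

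The Control-only intergenic regions were low peaks. Their peak value in Control-named library 1 was 23 at the lowest, 52 at the median and 314 at the highest. In Control-named library 2 the lowest was 24, the median 54 and the highest 421. The medians of both libraries were thus alike. A peak value under 50 was found for 45.8% of them in library 1 and for 42.2% in library 2. A peak value of 100 or more was found for 10.3% in library 1 and for 11.4% in library 2. BT-only intergenic regions were lower still, with a median of 43 in both BT-named libraries. Shared intergenic regions were taller, with medians of 86 and 87 in the BT-named and 108 and 118 in the Control-named libraries.

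**Figure D1:**
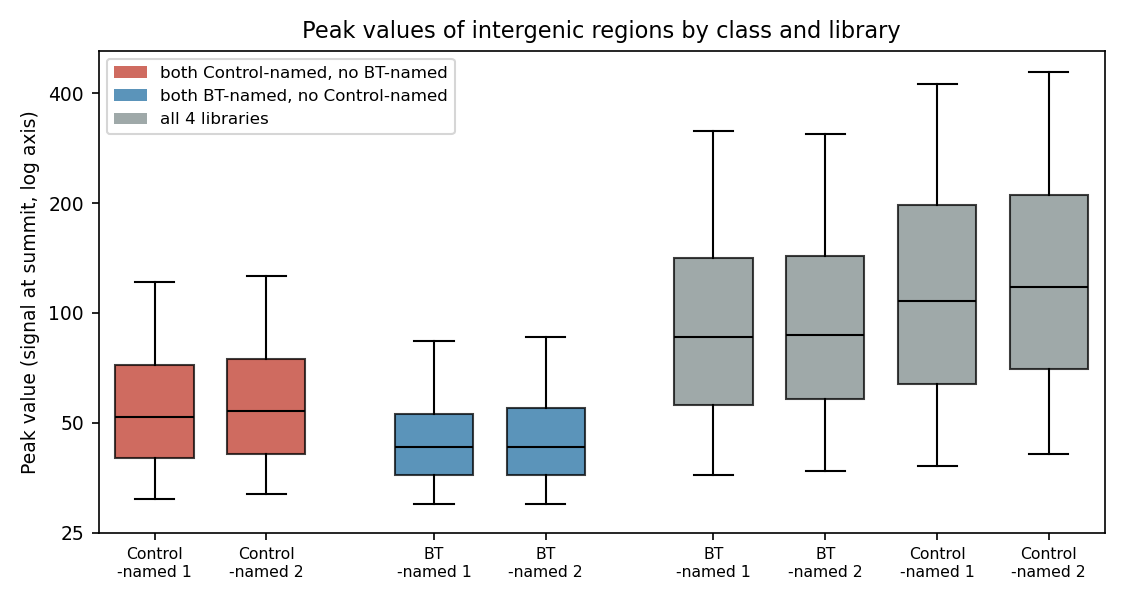
Peak value (signal at the summit, log axis) of intergenic regions in each library that lists them, for Control-only, BT-only and shared regions. Lines mark the median, boxes the middle 50% and whiskers the 5th and 95th percentiles over regions, and Control-only regions lie with medians of 52 and 54 below the shared ones.

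The plot of peak values by class shows how alike the paired libraries were. Over the 4426 regions, the peak values of the Control-named libraries had a Pearson correlation of 0.84 on the log2 scale and a Spearman correlation of 0.79, which describe sites that share libraries, depth and the listing itself. The value was higher in library 2 for 2442 regions, lower for 1850 and equal for 134. It differed by more than 2-fold for 22 regions, and 99.5% lay within that fold. Averaged over both libraries, the peak value was 24.5 at the lowest, 53 at the median and 362 at the highest, with the middle 50% of regions between 41.5 and 73.

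The tallest of these regions lay upstream of KIAA0232 on chromosome 6, at 118076745 to 118077146 (402 bp), 31.3 kb from the gene start. Its peak value was 303 and 421 in the Control-named libraries 1 and 2, the widest spread among the 10 tallest. The nearest BT-named interval lay 1152 bp away. Coordinates are those of the cattle genome UMD3.1, counted from 1.

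The next lay upstream of ME3, the gene of a mitochondrial malic enzyme, on chromosome 29 at 8899872 to 8900272. It reached 314 and 272 in the Control-named libraries. A BT-named interval lay 313 bp away, so BT-named signal was listed beside the region although not over it. The third, at 22632897 to 22633267 on chromosome 7, had 252 and 265 and lay 52.3 kb upstream of OAZ1, whose product is an inhibitor of polyamine synthesis. A region shared by all 4 libraries lay 214 bp from it.

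On chromosome 13, the region at 59605517 to 59606040 had 258 and 238, and its nearest gene start, of MIR2307, was 116 kb away. The fifth, on chromosome 11 at 41938151 to 41938625, had 212 and 279. It was the most isolated of the 10, since the nearest BT-named interval was 30.6 kb and the nearest shared region 49.7 kb away. The region at 25110201 to 25110592 on chromosome 25 lay 27.8 kb upstream of KDM8, a gene of the JmjC family, and had 260 and 212.

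On chromosome 20, the region at 59232060 to 59232446 had 198 and 263 in the Control-named libraries. Another on the same chromosome, at 66490997 to 66491322, had 191 and 257. Both lay downstream of uncharacterised loci. The region at 24022636 to 24023084 on chromosome 27 had almost equal values of 228 and 232, with CLDN23, a claudin gene of epithelial tight junctions, as its nearest gene start at 167 kb. The last of the 10, at 70815828 to 70816232 on chromosome 21, had 193 and 239 and was the only one of them that overlapped a CpG island.

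Tall regions were rarer with each step in height. A mean peak value of 100 or more was reached by 457 Control-only and 54 BT-only intergenic regions. At 150 or more there were 94 Control-only and 4 BT-only regions, and at 200 or more 18 and 2. At 250 or more there were 3 Control-only regions, near KIAA0232, ME3 and OAZ1, and 0 BT-only ones.

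The share of intergenic regions that went unlisted in the other group was smaller at greater height. Among regions in both Control-named lists with a mean peak value under 40, 51.8% were in no BT-named list (929 of 1793). This share was 36.2% between 40 and 60, 24.6% between 60 and 80, and 17.0% between 80 and 100. It was 9.91% between 100 and 150, 3.86% between 150 and 200, and 0.795% between 200 and 300. Of 2063 regions at 300 or more, 1 was missing from both BT-named lists, the one near KIAA0232. For regions in both BT-named lists, the share in no Control-named list was 35.5% under 40, 18.96% between 40 and 60, and 6.32% between 60 and 80. It was 1.56% between 100 and 150, and 0 of 902 at 300 or more. At each height below 300 the Control-only share was the larger, as the plot of this share by height shows. The peak values are as deposited, and how they were scaled between libraries was not stated. Equal values in the 2 groups need not be equal heights, here and in the counts of tall regions above.

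**Figure D2:**
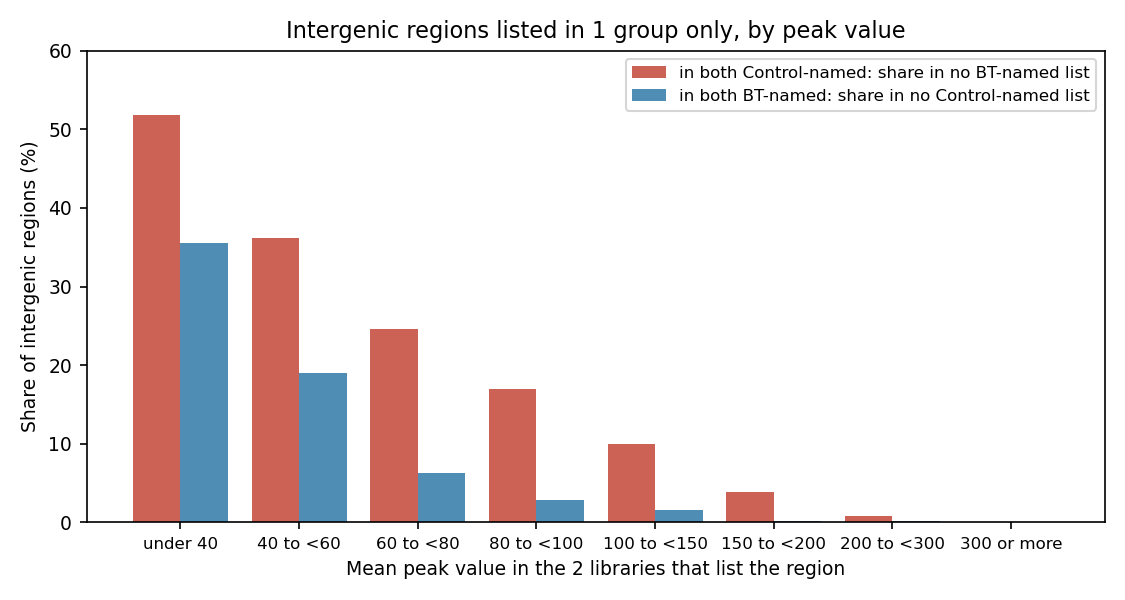
Share of intergenic regions (%) that no library of the other group lists, by the mean peak value in the 2 libraries that list them, for regions in both Control-named lists and for regions in both BT-named lists. The Control-only share is 51.8% under a peak value of 40 and 0.0485% at 300 or more, and the BT-only share lies below it in every bin. Peak values are as deposited, and their scaling between libraries was not stated.

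At the edge of the rule, the lowest kept region lay on chromosome 1 at 112567293 to 112567618, with peak values of 24 and 25 in the Control-named libraries. Others as low were at 44235818 to 44236153 on chromosome 7, with 25 and 25, and at 44056577 to 44056867 on chromosome 17, with 27 and 24. Just outside the rule were regions that 1 BT-named library also listed, at a low height. On chromosome 2, the region at 92305132 to 92305592 had 23 in BT-named library 2, against 45 and 72 in the Control-named libraries. On chromosome 5, the region at 18409724 to 18410222 had 23 in BT-named library 1, against 65 and 45 in the Control-named libraries. On chromosome 3, the region at 55443715 to 55443928 had 24 in BT-named library 2, against 29 and 32 in the Control-named libraries. These regions had Control-named values within the range of the kept ones. In all, 1803 intergenic regions were in both Control-named lists and 1 BT-named list, with a median BT-named peak value of 37 and a median Control-named mean of 60. Control-named library 1 alone listed 1178 intergenic regions and Control-named library 2 alone 1707, with medians of 36 and 37.

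Control-only intergenic regions were also short. Their merged length was 200 bp at the shortest, 352 bp at the median and 1177 bp at the longest, and together they covered 1.67 Mb. The median length was 319 bp for BT-only and 471 bp for shared intergenic regions. Length went with height, so intervals were set side by side at like peak values. In Control-named library 1, intervals with a peak value between 50 and 75 had a median length of 348 bp in Control-only and 341 bp in shared regions. Between 150 and 250, the medians were 397.5 bp in Control-only and 495 bp in shared regions. Control-named library 2 gave 344 and 338 bp for the lower range and 390 and 484 bp for the higher one. Low Control-only intervals were thus about as long as low shared ones, while tall ones were shorter than shared ones of like height in both libraries.

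The 3 longest regions were taller than most Control-only intergenic regions. Their mean peak values were 90.5, 92 and 115, against a median of 53 over all of that class. The longest spanned 41054928 to 41056104 on chromosome 11 (1177 bp) with peak values of 98 and 83, and was 49.0 kb from the nearest shared region. On chromosome 2, the region at 94400462 to 94401608 had 111 and 73. The third, at 121552568 to 121553703 on the same chromosome, had 109 and 121, overlapped a CpG island and lay 288 bp from a shared region. CpG islands, stretches rich in CG pairs that often mark promoters, were overlapped by 128 Control-only intergenic regions (2.89%), by 45 BT-only ones (2.21%) and by 1192 shared ones (7.38%). Among the tallest of those 128, chosen for naming after their values were seen, was a region 12.1 kb upstream of TCF7L2, a transcription factor gene of the Wnt pathway, on chromosome 26 at 33744026 to 33744420. It had 132 and 173.

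Control-only intergenic regions lay among shared open chromatin. The gap from a Control-only intergenic region to the nearest region listed in all 4 libraries was 19 bp at the shortest, 9961.5 bp at the median and 1496 kb at the longest. For BT-only intergenic regions the median gap was 20235.5 bp. For shared intergenic regions, the median gap to the next region in all 4 libraries was 10033 bp. The spacing of Control-only regions from shared ones was thus close to the spacing of shared intergenic regions, and the median gap of BT-only regions was about 2-fold longer. Within 10 kb of a shared region lay 50.1% of Control-only, 32.7% of BT-only and 49.9% of shared intergenic regions. More than 100 kb away lay 198 Control-only (4.47%), 275 BT-only (13.5%) and 797 shared intergenic regions (4.93%). The plot of cumulative gaps shows the Control-only and shared curves running together and the BT-only curve at longer gaps. Shared regions far outnumber the others, and no test was made of these gaps.

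**Figure D3:**
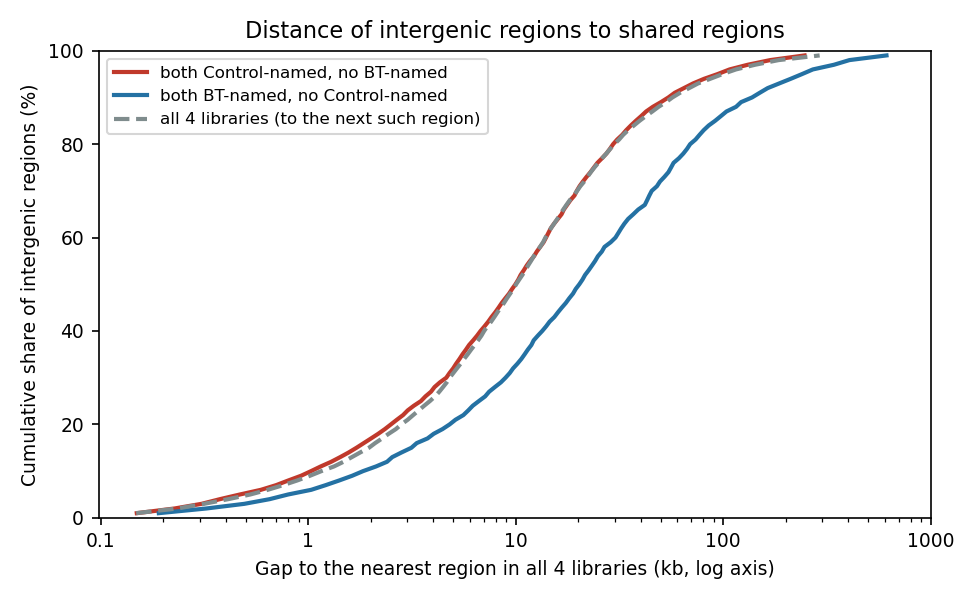
Cumulative share (%) of Control-only, BT-only and shared intergenic regions against the gap to the nearest region listed in all 4 libraries (kb, log axis; for shared regions, the next such region), drawn to the 99th percentile. The Control-only and the shared curve cross 50% near 10 kb, with medians of 9961.5 and 10033 bp, and the BT-only curve crosses it at 20235.5 bp.

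The nearest shared region was itself intergenic for 3695 Control-only regions (83.5%), against 24.5% of all shared regions. It overlapped a CpG island for 9.44% of them, against 23.2% of all shared regions, and lay at a promoter for 8.13%, against 30.8%. The rule itself favours such neighbours, since it kept only regions with no gene within about 10 kb. The same shares for the neighbours of BT-only or shared intergenic regions were not computed. The 4426 regions had 3608 different nearest shared regions. A BT-named interval of any kind lay within 500 bp of 293 Control-only regions (6.62%) and within 1 kb of 558 (12.6%), with a median gap of 7263.5 bp. The nearest BT-only region, intergenic or at a gene, lay at a median of 191508 bp. BT-only regions are only a part of the BT-named intervals, so this gap could not be the shorter one. The same gap from shared intergenic regions was not computed.

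Regions close to a shared one were the taller. The 428 Control-only regions within 1 kb of a shared region had a median mean peak value of 72, and 27.6% of them reached 100. The 1791 between 1 and 10 kb had a median of 57.5, and the 1719 between 10 and 50 kb a median of 48. The 488 at 50 kb or more had a median of 46, and 3.89% of them reached 100. CpG islands were overlapped by 8.18% of the nearest group and by 1.43% of the farthest. Median lengths were 344, 349, 360 and 348.5 bp in the same order of gaps, so length did not follow height here.

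The 5 most remote regions had mean peak values between 35 and 61.5, around the median of 53 of all Control-only intergenic regions. On chromosome 16, the region at 9513674 to 9513980 had peak values of 54 and 55, and the nearest shared region was 1496 kb away. On chromosome 20, the region at 52049670 to 52049949 had 39 and 33, with CDH18, a cadherin gene, as nearest gene start. On the X chromosome, the region at 25697544 to 25697823 had 40 and 38. These 3 lay more than 1000 kb from any shared region and stood alone, with the nearest other Control-only intergenic region at least 2768 kb away. The region at 27957683 to 27958050 on chromosome 1 had 38 and 32. The one at 52076855 to 52077249 on chromosome 14 had 58 and 65, and another Control-only intergenic region lay 2498 bp from it.

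Of the 4426 regions, 4271 (96.5%) were on autosomes and 155 on the X chromosome. Per Mb there were 1.70 on autosomes and 1.04 on X, yet their share of the intergenic regions was 13.9% on autosomes and 14.8% on X. The X chromosome was thus lower per Mb and not as a share. Between single chromosomes this share differed by more than 2-fold. Chromosome 20 stood highest, with 195 Control-only regions (18.8% of its intergenic regions, 2.71 per Mb) and 55 BT-only ones. Chromosome 14 had 200 (16.1%) and chromosome 1 had 294 (15.95%). Chromosome 29 stood lowest, with 52 Control-only (8.40%) and 53 BT-only regions, the only chromosome with fewer Control-only than BT-only ones. Chromosome 25 followed with 42 (9.17%) and chromosome 19 with 90 (11.3%). The plot by chromosome shows the remaining ones between 11.6% and 15.4%.

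**Figure D4:**
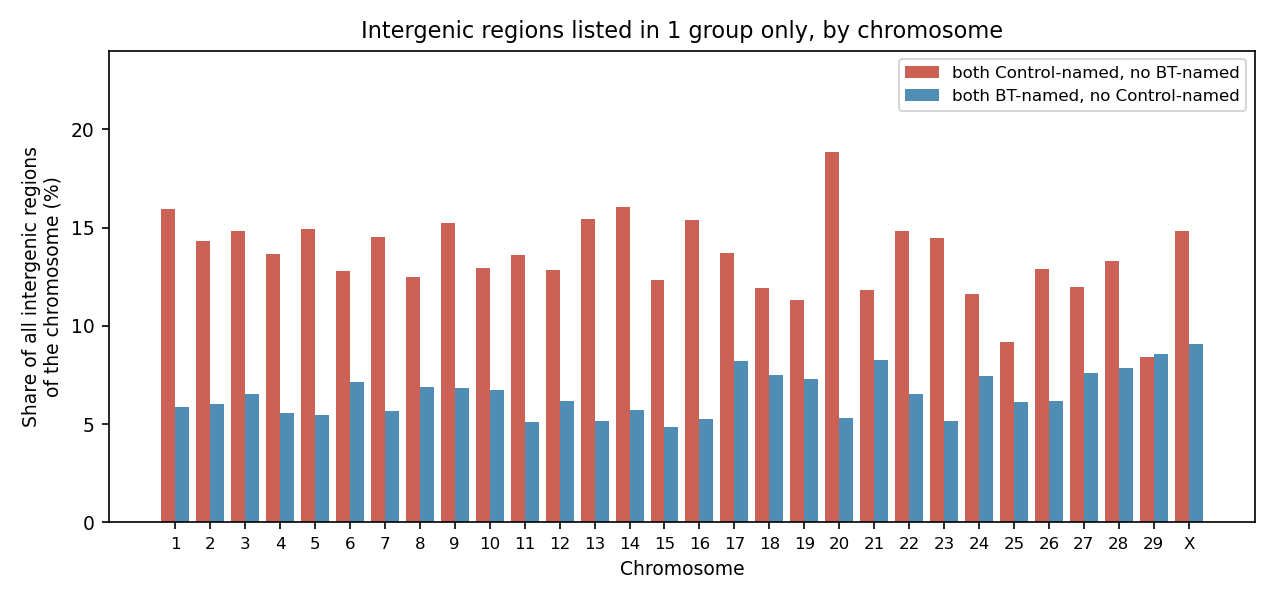
Share (%) of each chromosome's intergenic regions that is Control-only or BT-only. The Control-only share is highest on chromosome 20 (18.8%) and lowest on chromosome 29 (8.40%), where the BT-only bar is the taller of the pair.

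Along the autosomes the regions came in groups. In bins of 1 Mb, 4271 regions gave a mean of 1.69 per bin and a variance 2.82 times the mean. This ratio was 1.37 for BT-only and 4.93 for shared intergenic regions, and it rises with the number of regions, so the classes are given side by side with no test. Of 2528 bins, 988 (39.1%) held 0 Control-only regions, and the fullest bin held 19. Another Control-only intergenic region lay within 50 kb of 50.7% of them, against 19.4% for BT-only and 78.2% for shared regions within their own class. With gaps of up to 50 kb joined into runs, there were 2954 runs, of which 2107 were single regions. A further 299 runs had 3 or more regions and held 25.01% of all autosomal ones, and 42 runs had 5 or more. The longest had 10 regions, against 7 for BT-only and 37 for shared intergenic regions.

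Bins rich in shared intergenic regions were rich in Control-only ones. Across the 2528 bins, the counts of the pair of classes had a Pearson correlation of 0.65 and a Spearman correlation of 0.63. The correlations of Control-only with BT-only counts were 0.12 and 0.13, and those of BT-only with shared counts 0.25 and 0.24. These values are descriptions, since neighbouring bins share sequence composition, mappability and gene density. In the 267 bins with 0 shared intergenic regions there were 0.195 Control-only regions per bin. Bins with 5 to 9 shared regions had 1.68, those with 10 to 14 had 3.21, and the 78 bins with 20 or more had 6.5. As a share of the intergenic regions in these bins, Control-only regions stayed between 12.8% and 15.7%. The BT-only share was 24.9% in the bins with 0 shared regions and 3.32% in those with 20 or more. Per bin, BT-only regions numbered 0.315 in the former and 1.37 in the latter. Shared regions count in the total of these shares and also sorted the bins, so the shares are not independent of the sorting.

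The fullest bin, chromosome 13 from 44 to 45 Mb, held 19 Control-only regions among 75 intergenic ones, and 2 BT-only ones. Their mean peak value was 33 at the lowest, 62 at the median and 167.5 at the highest. The nearest gene start was that of LOC104973795 for 12 of them and of KLF6 for 7. KLF6 encodes a zinc finger transcription factor of the Krüppel-like family. Over the whole chromosome, 8 Control-only regions had KLF6 as nearest gene start. The tallest of these, at 44624747 to 44624973, had 106 and 136 in the Control-named libraries. The one nearest to the gene start, at 44971713 to 44972092, had 87 and 84 at 26.8 kb.

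The bin from 78 to 79 Mb on chromosome 9 held 15 Control-only regions of 48. Its tallest, at 78466532 to 78466912, had 169 and 151. All 15 had LOC104969607 as nearest gene start, and the start of CITED2, a transcriptional coregulator gene, lay inside the bin. On chromosome 8, the bin from 57 to 58 Mb held 14 of 45. All 14 had TLE1 as nearest gene start, which encodes a corepressor of transcription of the Groucho family. No gene start that the table places lay in the bin. With 1 more region upstream of the gene, TLE1 had 15 of its 47 nearest intergenic regions Control-only, 3 BT-only and 20 shared. Their distances to the gene start ran between 50.5 and 788 kb. The tallest, at 57222765 to 57223132, had 131 and 104, and the lowest, at 57523853 to 57524100, had 38 and 41. Bins on chromosome 14 from 14 to 15 Mb and on chromosome 27 from 15 to 16 Mb held 13 Control-only regions each, of 49 and 54. On chromosome 27, 3 of them had SORBS2 as nearest gene start, an adaptor protein gene of actin stress fibres.

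The longest run lay on chromosome 20 from 5927917 to 6120800, where 10 of 22 intergenic regions were Control-only, 1 BT-only and 9 shared. Its tallest region, at 5956007 to 5956927, had 111 and 94, and its lowest, at 6027079 to 6027515, had 33 and 39. All 10 were 236.5 kb or more from the nearest gene start that the table places.

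The run on chromosome 11 from 78355262 to 78450758 was shorter and denser, with 9 of 18 intergenic regions Control-only, 7 shared and 0 BT-only within 95.5 kb. The nearest gene start was that of RHOB for 7 of them. RHOB encodes a small GTPase found on endosomes. In the Control-named libraries 1 and 2, the 7 regions had peak values of 31 and 35 at 83.3 kb from the RHOB start, 124 and 118 at 54.8 kb, and 61 and 63 at 47.0 kb. They had 86 and 76 at 41.4 kb, 86 and 102 at 29.7 kb, 85 and 93 at 25.01 kb, and 100 and 79 at 15.8 kb. The paired libraries thus ranked the tallest and the lowest of the 7 alike. The region at 78419272 to 78419663 lay 139 bp from a shared one.

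In the third run, on chromosome 20 from 25666153 to 25853784, 9 of 23 intergenic regions were Control-only, 10 shared and 0 BT-only. The nearest gene start was that of FST for 6 of them. FST encodes follistatin, a secreted protein that binds activins and keeps them from their receptors. The tallest of the 6, at 25768689 to 25769042, had 142 and 108 and lay 175 kb upstream, and the lowest, at 25679595 to 25679828, had 39 and 33.

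Gene starts, placed only for genes with more than 1 listed summit, were farther from Control-only than from shared intergenic regions. The median distance to the nearest gene start was 67.2 kb for Control-only, 82.9 kb for BT-only and 57.5 kb for shared intergenic regions, and 64.7 kb for all intergenic ones. It was within 50 kb for 39.8% of Control-only regions and beyond 200 kb for 19.5%. The Control-only regions had 2556 different nearest genes, of which 1626 had a single region. The genes nearest to most of them were TLE1 and LOC104969607 with 15 each and LOC104973269 with 14. LOC104973795 followed with 12, LOC104972870 with 11, and CELF2, LOC101902852, LOC101907478 and LOC104970789 with 10 each. LOC104969438 had 9, as did 3 other genes that come after it by name. CELF2 encodes an RNA-binding protein that regulates splicing. Of its 28 nearest intergenic regions, 10 were Control-only, 0 BT-only and 11 shared, and the Control-only ones had a mean peak value of 35.5 at the lowest, 66.75 at the median and 108 at the highest. Genes in wide intergenic stretches collect more regions, so a count per gene also measures the room around it.

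Gene lists were read against the 13.9% of all intergenic regions that were Control-only. For the extracellular matrix list, 18 of the 102 intergenic regions with one of its genes as nearest start were Control-only (17.6%), 1 was BT-only and 59 were shared, and 12 of 30 genes had at least 1. FBN1, the gene of fibrillin-1, a microfibril protein, had 3 Control-only regions on chromosome 10. The one at 61831861 to 61832419, 45.7 kb upstream, had peak values of 214 and 161 in the Control-named libraries. The one at 61828593 to 61828953 had 138 and 151, and the one at 61824032 to 61824321 had 104 and 141. All 3 were thus far above the median of 53. TNC, the gene of tenascin-C, had 3 Control-only regions of 33, the tallest with 115 and 134. POSTN, the gene of periostin, had 2, the taller with 76 and 62.

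For the fibroblast and mesenchymal list, 7 of 35 intergenic regions were Control-only (20.0%), 0 BT-only and 15 shared. Of these, 6 were nearest to CDH11, the gene of cadherin-11, a cell adhesion protein of mesenchymal cells, and 1 to SNAI2, a transcriptional repressor gene of epithelial to mesenchymal transition. The tallest near CDH11, on chromosome 18 at 32720341 to 32721034, had 116 and 134 and lay 232 kb from the gene start. Those at 32738297 to 32738759 and at 32728035 to 32728419 had 105 and 95 and 78 and 72. The region near SNAI2 had 41 and 42. Of 6 mesenchymal marker promoters, 0 were listed in all 4 libraries. Their summed peak value was 71 and 0 in the BT-named and 162 and 190 in the Control-named libraries. PRRX1, DES and DCN were listed in the Control-named libraries only, PDGFRB and TWIST1 in 1 library of each group, and PDGFRA in none. The part of such cells in the extracellular matrix and mesenchymal counts was not tested.

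For the epithelial keratin and junction list, 6 of 45 intergenic regions were Control-only (13.3%), 1 BT-only and 29 shared. One of them, 25.4 kb upstream of CDH1, had peak values of 98 and 102. Those near COL17A1, a collagen gene of hemidesmosomes, and DSC3, a desmosomal cadherin gene, were lower, with 54 and 43 and with 34 and 34. The summed peak value of 6 epithelial marker promoters was 759 and 841 in the BT-named and 356 and 439 in the Control-named libraries, a sum carried by KRT14, KRT18 and KRT19. KRT5 went the other way, with 59 and 72 in the BT-named and 90 and 115 in the Control-named libraries, as did EPCAM, with 29 and 39 in the BT-named and 41 and 54 in the Control-named libraries. The part of the marker levels in the epithelial counts was not tested. The list of transcription factors of stratified epithelia had 6 Control-only regions of 31 (19.4%), 0 BT-only and 11 shared. Upstream of TP63, a master regulator gene of stratified epithelia, lay 3 of these with 93 and 85, 28 and 32, and 53 and 58. EHF, an ETS factor of epithelia, had 1 with 77 and 58, and GRHL3, a Grainyhead factor of barrier formation, had 1 with 57 and 68.

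AP-1 and immediate early genes had 4 Control-only regions of 35 (11.4%). FOS and JUN encode subunits of AP-1, a factor that often binds enhancers. The region 16.3 kb from the FOS start, on chromosome 10 at 86899934 to 86900170, had 150 and 159 and lay 496 bp from a shared one. JUN had 2, the taller with 63 and 50, and BATF3, a related bZIP factor gene, had 1 with 53 and 47. Genes of YAP, TEAD and TGF-beta signalling had 8 of 67 (11.9%). TEAD1, which encodes a DNA-binding partner of YAP, had 3 upstream on chromosome 15, with 92 and 109, 123 and 110, and 32 and 41. BMP2, a ligand gene of the TGF-beta family, had 2 Control-only and 2 BT-only regions, and AMOTL2, an angiomotin family gene, had 1 with 53 and 46. The actin cytoskeleton and adhesion list had 6 of 42 (14.3%), with 1 each near ACTN1, CFL2 and MYH9 at heights between 40 and 57.

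Developmental transcription factors had 22 Control-only, 10 BT-only and 79 shared regions of 150 (14.7% Control-only). NKX6-1, a homeobox gene, had 4 of 25. The tallest, 34.7 kb upstream on chromosome 6 at 101131002 to 101131433, had 149 and 125, while the others had between 35 and 51. IRX3, another homeobox gene, had 3, the tallest with 103 and 111, and BCL11B, a zinc finger factor gene, had 2. The neuronal list had 6 Control-only regions of 44 (13.6%) against 9 BT-only ones. STMN2, a microtubule regulator gene of neurons, had 3 of the 6, the tallest with 147 and 126, and ELAVL4 and GAP43 had 1 each with 41 and 43 and with 38 and 46. Of 3 neuronal marker promoters, SNAP25 and SYT1 were listed in all 4 libraries and STMN2 in none. Their summed peak values were 352 and 340 in the BT-named and 226 and 276 in the Control-named libraries, and their part in the neuronal counts was not tested. The endothelial and immune list had 1 of 6, near VWF, with 50 and 41. The list for transport of short-chain fatty acids and for ketone bodies had 2 of 32 (6.25%) against 4 BT-only ones. One was 16.1 kb upstream of BDH1, an enzyme gene of ketone body formation, with 107 and 104. The other was upstream of SLC16A3, a monocarboxylate transporter gene, with 51 and 59. These counts are small, and no list was tested.

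The shared regions around Control-only ones were compared between the groups, since they have values in all 4 libraries. limma was fitted to log2(average value + 1) over all 65892 regions listed in every library, as BT-named over Control-named, and a region was called at an adjusted p under 0.05. Of all these regions, 39.4% were called lower and 6.90% higher in BT-named libraries as deposited, with a median log2 fold change of -0.24. Within 50 kb of a Control-only intergenic region lay 11299 of them. There 5700 (50.4%) were called lower and 551 (4.88%) higher, with a median of -0.38. The higher calls numbered 349 without BT-named library 1 and 292 without BT-named library 2. The lower calls stayed between 4570 and 5814 without any 1 library. Within 50 kb of a BT-only intergenic region, 36.2% of 4299 shared regions were called lower and 12.4% higher, with a median of -0.17.

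How the deposited signal was scaled between libraries was not stated, and the scaling decides the balance of calls. Centring each library on its median moved every log2 fold change up by 0.36. After centring, 28.6% of the shared regions near Control-only ones were called lower and 22.8% higher, against 20.4% and 30.2% of all shared regions. After quantile normalization these were 31.7% and 17.4% near Control-only regions, against 22.7% and 23.3%. Called lower under all 3 scalings were 28.1% near Control-only regions, where the background was 20.0%. Called higher under all 3 were 4.83%, where the background was 6.89%. Under each scaling, the share called lower was thus larger near Control-only regions than over all shared regions, and the share called higher was smaller. The same libraries chose the Control-only regions, so these shares are a description and not independent of the choice.

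Among shared intergenic regions, the share called lower went with the gap to the nearest Control-only region. It was 59.4% of 429 within 1 kb, 56.5% of 2255 between 1 and 10 kb, 52.9% of 4005 between 10 and 50 kb and 34.6% of 9473 beyond 50 kb as deposited. The share called higher in the same order was 4.20%, 4.21%, 6.02% and 13.3%. The median log2 fold changes in that order were -0.49, -0.47, -0.43 and -0.14, and after centring -0.13, -0.11, -0.07 and 0.22. Within 1 kb, the median average value of the shared intergenic regions was 65.6 and 64.2 in the BT-named and 93.3 and 99.7 in the Control-named libraries. Beyond 50 kb it was 56.5 and 57.5 in the BT-named and 62.3 and 67.5 in the Control-named libraries. These medians, as deposited, did not overlap between the groups at either distance and lay farther apart close to Control-only regions. Over all shared intergenic regions they did not overlap either, with 58.2 and 59.0 in the BT-named and 71.1 and 76.4 in the Control-named libraries. The plot of calls by distance shows the same order after centring. The medians were also higher within 1 kb than beyond 50 kb in every library, and the shares were not compared at like height. Regions that a BT-named library did not list are left out of the shared ones, which limits how far a low shared region could fall.

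**Figure D5:**
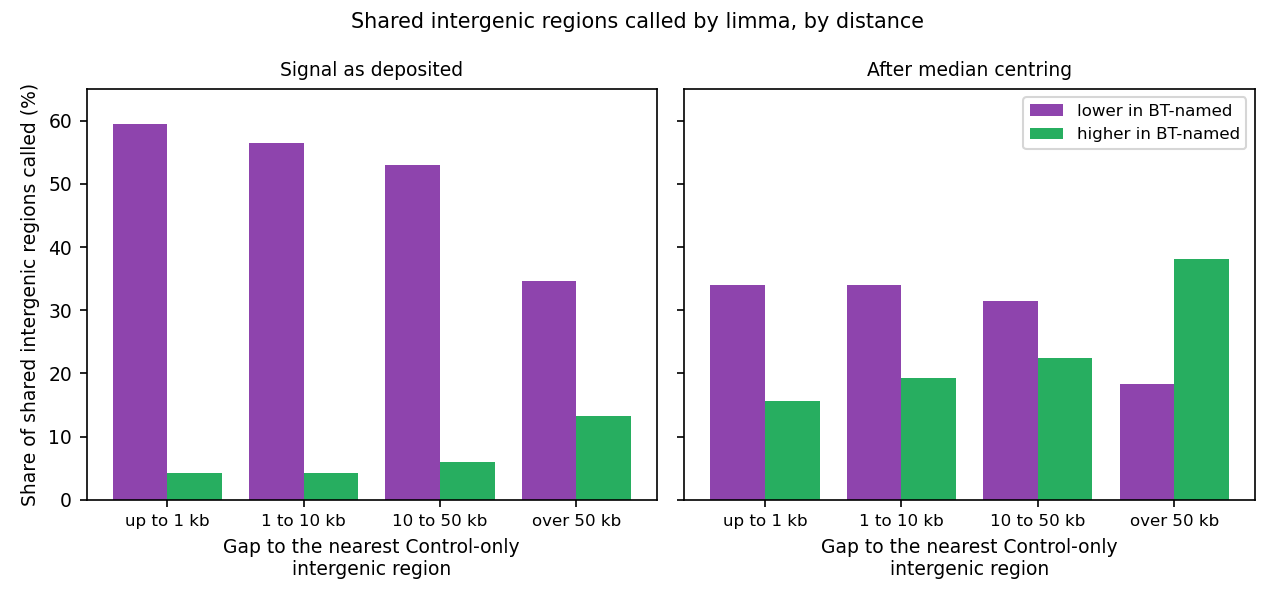
Share (%) of shared intergenic regions that limma called lower or higher in BT-named libraries, by the gap to the nearest Control-only intergenic region, with the signal as deposited (left) and after median centring per library (right). The lower share is largest within 1 kb (59.4% as deposited) and the higher share is largest beyond 50 kb (13.3% as deposited).

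The shared neighbours of the 10 tallest regions differed among themselves. As deposited, each had a negative log2 fold change. It was -0.91 at the most, for the region nearest to MIR2307, and -0.23 at the least, for the fifth region, on chromosome 11. After centring, these changes were -0.55 and 0.14. The median over all shared regions was itself -0.24 as deposited and 0.13 after centring. The neighbours of the fifth region and of the region at 59232060 on chromosome 20 were not called as deposited (adjusted p = 0.324 and 0.118 by limma). After centring, the neighbours near KIAA0232, OAZ1 and KDM8, of the fifth region and of the one at 59232060 turned positive. The others stayed negative. The neighbour of the region nearest to CLDN23 lay on chromosome 27 at 24018826 to 24019584. It had average values of 230 and 241 in the BT-named and 425 and 417 in the Control-named libraries. On the log2 scale it was lower, with a change of -0.84 ± 0.11 (SE; adjusted p = 1.29e-10 by limma), and after centring -0.48 with an adjusted p of 0.000126. The neighbour of the region upstream of ME3 had 299 and 307 in the BT-named and 513 and 490 in the Control-named libraries. The log2 change there was -0.73 ± 0.11 (SE; adjusted p = 1.45e-09 by limma), and after centring -0.36 with an adjusted p of 0.00093. By contrast, the neighbour of the tallest region, near KIAA0232, had 378 and 419 in the BT-named and 463 and 498 in the Control-named libraries. Its log2 fold change of -0.27 ± 0.10 (SE; adjusted p = 0.0212 by limma) was 0.09 after centring, with an adjusted p of 0.346, so its direction depended on the scaling. The neighbour 214 bp from the region upstream of OAZ1 had 459 and 411 in the BT-named and 514 and 517 in the Control-named libraries. As deposited its value was lower by a log2 fold change of -0.25 ± 0.10 (SE; adjusted p = 0.0311 by limma), and after centring the change was 0.11 with an adjusted p of 0.234.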

How the data were processed

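ATAC-seq was done on 4 libraries of rumen epithelial primary cells. Per the submitters' processing notes and the methods, paired reads were aligned with BWA (genome build UMD3.1) and peaks were called with MACS2, one list per library. The notes also name Trim Galore 0.4.1. The deposited table gives the authors' signal per interval as a peak value and an average value, with nearby genes and CpG islands. How it was normalized is not stated in the sources used.

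Intervals overlapping by at least 1 bp were merged (362102 into 115970). A region counted as intergenic when every interval had a gene count of 0, which left out genes within about 10 kb. Gaps ran edge to edge. Gene starts were rebuilt from summits and distances in the table (23173 genes used). Of these, 17129 matched a RefSeq symbol or synonym of ARS-UCD2.0, used for names only. Genes with 1 summit only (1485) or without a unique start (401) were left out, and genes with no listed interval could not be placed. Runs joined gaps up to 50 kb. limma 3.58.1 (R 4.3.3; trended, robust variance; two-sided; Benjamini-Hochberg) used a pseudocount of 1. Values were read from each library's own interval in a region. The other steps used Python 3.11.15, pandas 2.3.3 and scipy 1.17.1, and the fit was tested on simulated data. Alternatives changed the merging, height minimum, bins, gaps, scaling, pseudocount, variance model, replicate block and libraries.

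Named were the 10 tallest, 5 most remote, 3 longest and 3 lowest regions, the 3 nearest outside the rule, the 5 fullest bins, the 3 longest runs, the 10 genes nearest to most regions and up to 3 genes per list. Regions near KLF6 and TCF7L2 were named after their values were seen. Members and lists were chosen with earlier results of these data known.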

Additional observations from a re-analysis of the deposited data

How the results depend on the processing

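The number of Control-only intergenic regions, 4426, stayed within 1.5-fold under every alternative run. Requiring a peak value of 50 in all lists gave 4029, and leaving out a library gave between 5235 and 6191. The 4029 were not a subset of the 4426, of which 45.8% had a peak value under 50 in Control-named library 1. Regions whose BT-named intervals were all under 50 came in, so the count was alike but the regions were not the same. The median peak value of 53 was 39.6 with average values in place of peak values, and between 47 and 54 without 1 library. The median gap to shared regions of 9.96 kb was 8.10 kb when shared meant at least 1 library of each group, 10.44 kb between summits and 11.9 kb at a peak value of 50 or more, and between 9.22 and 10.1 kb without 1 library. The variance over the mean of 2.82 was 2.29 in bins of 0.5 Mb and 3.33 in bins of 2 Mb, and between 3.07 and 3.26 without 1 library. The share with a neighbour of 50.7% was 22.3% at 10 kb and 62.3% at 100 kb, and between 54.5% and 59.0% without 1 library. Of the shared regions near Control-only ones, the 5700 called lower were 3234 after centring, 3578 after quantile normalization and 1681 within 10 kb, and between 4570 and 5814 without 1 library. The 551 called higher were 2580, 1969 and 126 under the same settings, and between 292 and 639 without 1 library. The distances and bins change the counts by construction. Leaving out a library does so for the number of Control-only regions, since it drops a condition of the rule. For the other settings the cause was not tested.

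The replicate numbers are shared by the groups, and deviations of same-numbered libraries had a correlation of 0.03. This value cannot show whether same-numbered libraries shared a culture or a batch. With the replicate block, 5797 were called lower and 584 higher. A list has a lowest height and no read totals were used, so absence of a low region from a list cannot be told apart from a value just under it. With 2 libraries per group from 1 calf, the spread covers these libraries only.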
